A study of Homo sapiens with 6 samples.

Results

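The NF-kB subunits and the inhibitors that the pathway induces against itself were described here as 10 genes, taken from the deposited tables by gene symbol. They were the 5 subunits NFKB1, NFKB2, RELA, RELB and REL, the inhibitors NFKBIA, NFKBIE, TNFAIP3 and TNIP1, and BIRC3, out of 29889 genes with a read in any library and 15847 that passed a filter on low counts. All 10 passed the filter. RNA was sequenced from A549 cells, an established line of human lung adenocarcinoma, 48 h after transfection by Lipofectamine 2000 with the plasmid pIRES-hrGFP-1a carrying CELF6 (CELF6-OE) or with the empty plasmid (Control). CELF6 is an RNA-binding protein, and the comparison asks which transcripts changed when its level was raised. Each group had 3 libraries, described as biological replicates. The controls therefore shared the cell line, the plasmid backbone and the transfection, the expression was transient, and a single line was used.

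NF-kB is a family of dimeric transcription factors that waits in the cytoplasm, bound by inhibitors of the IkB type. Receptors of the TNF, interleukin-1 and Toll-like families activate the IKK kinases, the inhibitor is degraded, and the freed dimer moves to the nucleus and binds kappaB sites in DNA. Genes of the inhibitors and of several subunits carry such sites themselves, so the pathway induces its own brakes, and in airway epithelium it drives much of the inflammatory response.

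In CELF6-OE, 6 of the 10 genes fell at an adjusted p under 0.05 and 0 rose. Those that fell were BIRC3, TNFAIP3, NFKB2, NFKBIA, TNIP1 and NFKBIE, with changes from -44.5% for BIRC3 to -21.0% for NFKBIE. Over all genes tested, 11.5% were lower and 6.47% higher by the same rule (quasi-likelihood test in edgeR, p adjusted by Benjamini-Hochberg). All 4 inhibitors and BIRC3 fell, against 1 of the 5 subunits, NFKB2, and the transcript of RELA, the most studied subunit, did not pass the test. At an unadjusted p under 0.05 the number that rose was 0 as well, as it was by DESeq2, by limma-voom and by edgeR's likelihood ratio test.

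Promoters of BIRC3, TNFAIP3, NFKB2 and NFKBIA, the genes with the largest changes, are printed first, beside a promoter of RELA. They are shown because NF-kB is known to act on its own inhibitors through kappaB sites. Each sequence runs from 250 bases before to 50 bases after an annotated start, 300 bases in all, on the gene's own strand, from RefSeq (GRCh38.p14). Capitals mark matches to the 10-letter kappaB consensus on either strand. The windows were chr6:137867009-137867308 on the plus strand for TNFAIP3, chr11:102317234-102317533 plus for BIRC3, chr10:102394328-102394627 plus for NFKB2, chr14:35404700-35404999 minus for NFKBIA and chr11:65662867-65663166 minus for RELA.
TNFAIP3: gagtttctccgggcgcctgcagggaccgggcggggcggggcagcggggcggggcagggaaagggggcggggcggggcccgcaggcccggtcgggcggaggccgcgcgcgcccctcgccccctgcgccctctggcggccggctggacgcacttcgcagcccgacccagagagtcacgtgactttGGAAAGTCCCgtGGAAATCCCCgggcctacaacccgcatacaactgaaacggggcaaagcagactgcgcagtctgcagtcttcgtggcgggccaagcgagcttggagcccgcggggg
BIRC3: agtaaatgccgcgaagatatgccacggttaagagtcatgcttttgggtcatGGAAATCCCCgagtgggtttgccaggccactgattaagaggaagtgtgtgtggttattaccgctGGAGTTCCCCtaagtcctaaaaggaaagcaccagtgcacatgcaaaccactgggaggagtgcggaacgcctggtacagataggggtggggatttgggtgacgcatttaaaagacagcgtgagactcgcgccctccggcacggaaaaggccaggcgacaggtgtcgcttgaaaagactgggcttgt
NFKB2: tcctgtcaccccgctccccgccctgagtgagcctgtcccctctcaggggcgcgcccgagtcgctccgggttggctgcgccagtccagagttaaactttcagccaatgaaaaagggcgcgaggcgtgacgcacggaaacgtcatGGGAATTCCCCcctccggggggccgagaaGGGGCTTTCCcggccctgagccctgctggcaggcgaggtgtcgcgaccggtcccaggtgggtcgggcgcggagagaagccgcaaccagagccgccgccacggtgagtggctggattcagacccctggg
NFKBIA: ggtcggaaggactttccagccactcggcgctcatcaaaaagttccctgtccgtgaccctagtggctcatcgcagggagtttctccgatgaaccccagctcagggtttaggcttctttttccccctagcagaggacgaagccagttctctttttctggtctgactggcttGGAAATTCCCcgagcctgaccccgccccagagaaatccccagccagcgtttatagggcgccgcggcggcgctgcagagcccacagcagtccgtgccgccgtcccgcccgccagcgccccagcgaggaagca
RELA: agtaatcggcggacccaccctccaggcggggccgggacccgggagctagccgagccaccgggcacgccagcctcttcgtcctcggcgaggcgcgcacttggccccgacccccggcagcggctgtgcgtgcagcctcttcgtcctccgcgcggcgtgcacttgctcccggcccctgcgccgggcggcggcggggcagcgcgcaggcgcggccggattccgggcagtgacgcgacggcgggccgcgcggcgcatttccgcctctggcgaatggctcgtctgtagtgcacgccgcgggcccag

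The RefSeq table held promoters for 8 of the 10 genes, 13 windows in all, and RELB and NFKBIE had no entry. A match stood in at least 1 window of 7 of the 8 genes and in 8 of the 13 windows, against 1937 of all 27305 genes (7.09%) and 2075 of all 35116 promoters (5.91%) in the table. At least 2 matches stood in 259 of all promoters (0.738%). Genes of this kind are known to carry such sites, so a high share came with their choice and is not a result of these data. TNFAIP3 had GGAAAGTCCC from -67 and GGAAATCCCC from -55, counted from the start site to the first base of the match. BIRC3 had GGAAATCCCC from -199 and GGAGTTCCCC from -135, and NFKBIA had GGAAATTCCC from -81. In the NFKB2 window above, GGGAATTCCC from -107 overlapped GGAATTCCCC from -106, and GGGGCTTTCC followed from -78. Of the genes whose promoters are not printed, TNIP1 had GGGACTTTCC from -42, NFKB1 had GGGAATTTCC from -49, and REL had GGGAAATTCC from -47 with an overlapping match 1 base on. Neither of the 2 RELA windows held a match, and NFKB1, NFKB2 and TNIP1 each also had a window without a match. A match is a run of letters and not evidence of binding, and NFKB1 and REL, which did not pass the test, carried it as well as the genes that fell.

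The libraries held 33748328 to 35413404 counts in CELF6-OE and 36422617 to 37920700 in Control. CELF6 itself had 18646, 20789 and 11571 counts in CELF6-OE replicates 1, 2 and 3 and 0 in each Control library, at least 5937-fold higher against a limit of 3 counts per library, so the labels held. The 10 NF-kB genes together summed to 25382 to 28281 counts in CELF6-OE and 35073 to 37888 in Control. Epithelial markers fitted the labelled line in part, since KRT7, KRT8 and KRT18 were abundant while EPCAM was low at 1.03 ± 0.192 FPKM in CELF6-OE and 1.34 ± 0.430 in Control (SD, n = 3). Of 6 epithelial markers 4 were lower in CELF6-OE (KRT8, KRT18, KRT19 and CDH1), and their summed level was 10505 to 12184 CPM (counts scaled to library size) against 13061 to 14780. The 10 leukocyte markers summed to 8.95 to 11.8 CPM in CELF6-OE and 9.47 to 10.7 in Control, with CD3D and CD3E not listed and PTPRC at 0.01 FPKM or less in every library. Of these, 3 had enough counts for the test, and ITGAM was lower (log2 fold change -0.73, edgeR adjusted p = 0.0119) while CD14 and CD79A did not pass. Of the 6 endothelial and fibroblast markers COL1A2 was not listed, and the rest summed to 1.69 to 2.55 CPM against 2.95 to 3.46. Of the 2 tested, PECAM1 was lower, with 3 to 5 counts against 11 to 17 (log2 fold change -1.86, edgeR adjusted p = 0.0124), while COL1A1 did not pass. The part of these markers in the results was not tested, and in such bulk RNA a smaller number of cells of a kind and less RNA per cell cannot be told apart.

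Levels are given as FPKM, fragments scaled to transcript length and library depth, which allows a comparison between genes per length. In Control the order was NFKBIA, TNIP1, NFKB2, RELA, RELB, BIRC3, NFKBIE, NFKB1, TNFAIP3 and REL, from 90.3 ± 2.64 FPKM for NFKBIA down to 0.81 ± 0.19 for REL (SD, n = 3). Of neighbours in that order, RELA and RELB overlapped between libraries, as did NFKB1 and TNFAIP3. In CELF6-OE the order was the same but for NFKB2, which lay between RELA and RELB with overlapping ranges on both sides, and TNFAIP3 no longer reached the range of NFKB1. In both groups the transcripts of NFKBIA and TNIP1 were above that of every subunit, while the inhibitors NFKBIE and TNFAIP3 were among the least abundant.

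**Figure D1:**
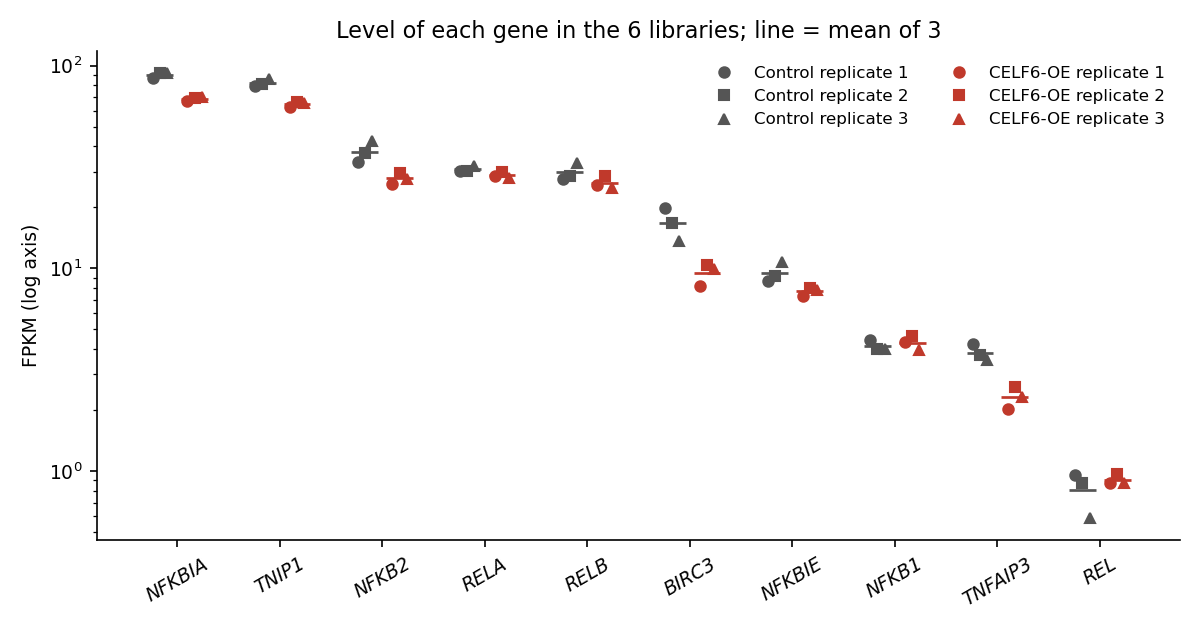
FPKM of each of the 10 genes on a log axis, with 1 point per library (3 CELF6-OE, 3 Control) and the group mean as a line. The CELF6-OE points lay below all Control points for NFKB2, RELA, NFKBIA, NFKBIE, TNFAIP3, TNIP1 and BIRC3, and overlapped them for NFKB1, RELB and REL.

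NFKB2 encodes a precursor that holds RELB in the cytoplasm and, once cut, becomes its partner in the non-canonical branch of the pathway. Its level was 26.02, 29.69 and 27.72 FPKM in CELF6-OE replicates 1, 2 and 3 and 33.47, 37.05 and 42.52 FPKM in Control replicates 1, 2 and 3. No CELF6-OE value reached the lowest Control value. The Control libraries were spread 12.1% around their mean against 6.60% in CELF6-OE (coefficient of variation). NFKB2 (chr10:102394110-102402524, plus strand) fell by 27.9%, a log2 fold change of -0.47 ± 0.097 (SE; 95% interval -0.68 to -0.26; edgeR adjusted p = 0.00697). It passed the test in all alternatives but limma on log2(FPKM + 1) without a filter, where adjusted p was 0.0632.

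RELA encodes the transactivating subunit of the classical dimer. Its levels were 28.68, 29.85 and 27.77 FPKM in CELF6-OE and 30.30, 30.28 and 31.80 FPKM in Control. Every CELF6-OE library lay below every Control library, but the gap was narrow, and the log2 fold change of -0.13 ± 0.064 (95% interval -0.27 to 0.011; edgeR adjusted p = 0.185) did not pass. RELB, the transactivating partner in the non-canonical branch, had 25.81, 28.52 and 24.86 FPKM in CELF6-OE and 27.72, 28.54 and 33.11 in Control. The groups overlapped, and the log2 fold change was -0.21 ± 0.090 (95% interval -0.40 to -0.0096; edgeR adjusted p = 0.134). Without Control replicate 1, RELB was called lower, at -0.29 with an adjusted p of 0.0170.

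NFKB1 encodes the precursor of the DNA-binding partner of RELA. It had 4.31, 4.63 and 3.95 FPKM in CELF6-OE and 4.41, 4.02 and 4.01 FPKM in Control, with overlapping groups. Its log2 fold change was 0.023 ± 0.080, and the 95% interval of -0.15 to 0.20 bounds a change in either direction (edgeR adjusted p = 0.870). REL, the transactivating subunit best known from lymphocytes, was the least abundant of the 10, with 0.87, 0.97 and 0.87 FPKM in CELF6-OE and 0.96, 0.87 and 0.59 FPKM in Control. Control replicate 3 stood below the other libraries, and the log2 fold change of 0.14 ± 0.145 (95% interval -0.18 to 0.46; edgeR adjusted p = 0.542) turned to -0.026 without it. REL also shares 5702 exonic bases with a long non-coding RNA on its own strand in GENCODE v44, so reads there could belong to either.

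The make-up of the subunit pool was compared as each subunit's share of the summed FPKM of all 5. NFKB2 made up 30.4%, 31.7% and 32.5% of the pool in CELF6-OE and 34.6%, 36.8% and 38.0% in Control. RELA made up 33.5%, 31.9% and 32.6% in CELF6-OE and 31.3%, 30.1% and 28.4% in Control. The share of NFKB2 was lower and that of RELA higher in all 3 CELF6-OE libraries than in any Control library, and so was that of NFKB1, at 4.87% ± 0.206 against 4.04% ± 0.489. REL made up 1.02% ± 0.0104 against 0.794% ± 0.240, also without overlap, and RELB 29.9% ± 0.654 against 28.8% ± 0.642 with overlap. Each two-sided exact permutation test gave p = 0.1 (0.125 adjusted over the 5 shares) except 0.2 for RELB, and 0.1 is the smallest p that 3 libraries against 3 allow. By FPKM, NFKB2 was thus the leading subunit transcript in every Control library. In CELF6-OE it was below RELA in each, narrowly in replicates 2 and 3. By counts, which are not scaled to length, NFKB2 stayed above RELA in all 3 CELF6-OE libraries (log2 ratio 0.11, 0.24 and 0.25). The order of these 2 genes in CELF6-OE therefore depends on the measure. A share can rise because another falls.

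**Figure D2:**
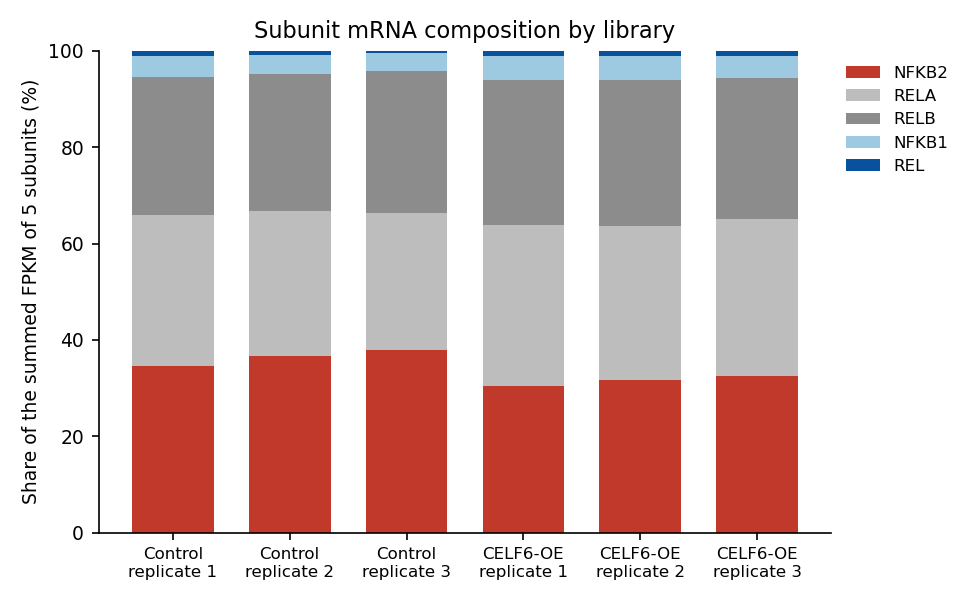
Share of each of the 5 NF-kB subunits in their summed FPKM, in percent, as 1 stacked bar per library. NFKB2 filled 34.6% to 38.0% of the Control bars and 30.4% to 32.5% of the CELF6-OE bars.

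NFKBIA encodes the main IkB inhibitor, which is made anew soon after the pathway is activated. Its levels were 67.07, 69.26 and 70.02 FPKM in CELF6-OE and 87.26, 91.91 and 91.74 FPKM in Control. The groups were far apart relative to their spread, 2.23% of the mean in CELF6-OE and 2.92% in Control. NFKBIA (chr14:35401079-35404749, minus strand) fell by 25.4%, a log2 fold change of -0.42 ± 0.062 (95% interval -0.56 to -0.29; edgeR adjusted p = 0.000944). Adjusted p did not exceed 0.0123 in any of 20 alternatives.

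NFKBIE, a slower inhibitor of the same type, had 7.28, 7.98 and 7.86 FPKM in CELF6-OE and 8.71, 9.19 and 10.69 FPKM in Control. The groups did not overlap, with Control replicate 3 above the rest. NFKBIE (chr6:44258166-44265788, minus strand) fell by 21.0%, a log2 fold change of -0.34 ± 0.099 (95% interval -0.56 to -0.12; edgeR adjusted p = 0.0368). This call was the least stable of the 6. It was lost without CELF6-OE replicate 1, 2 or 3 (adjusted p 0.143, 0.101 and 0.0751) and without Control replicate 2 or 3 (0.102 and 0.0596).

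TNFAIP3, a ubiquitin-editing enzyme that shuts off signalling from TNF and Toll-like receptors upstream of the kinases, had 2.02, 2.60 and 2.32 FPKM in CELF6-OE and 4.22, 3.75 and 3.53 FPKM in Control. All CELF6-OE libraries were well below the lowest Control library. TNFAIP3 (chr6:137867214-137883314, plus strand) was 1.69-fold lower, a log2 fold change of -0.76 ± 0.104 (95% interval -0.99 to -0.53; edgeR adjusted p = 0.000572). TNIP1, the adaptor that binds TNFAIP3 and carries it to ubiquitin chains, had 62.34, 66.26 and 65.42 FPKM in CELF6-OE and 78.98, 81.28 and 85.70 FPKM in Control. The groups did not overlap. TNIP1 (chr5:151029945-151093577, minus strand) fell by 22.8%, a log2 fold change of -0.37 ± 0.066 (95% interval -0.52 to -0.23; edgeR adjusted p = 0.00289).

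BIRC3 encodes a ubiquitin ligase of TNF receptor complexes that is induced by NF-kB, supports the canonical branch and limits the non-canonical one. The study picked BIRC3 for RT-qPCR from these same libraries, and likewise MYD88, CCL5 and CCL20, described below. It reports that RT-qPCR of the picked genes matched the RNA-seq closely. Its discussion also names TNFAIP3 among the inflammation-related genes that fell. The changes of these genes here are therefore not independent of those choices. BIRC3 had 2047, 2654 and 2419 counts (8.16, 10.36 and 9.91 FPKM) in CELF6-OE and 5217, 4582 and 3699 counts (19.93, 16.82 and 13.57 FPKM) in Control. The groups did not overlap, although Control was spread by 19.0% of its mean. BIRC3 (chr11:102317484-102339403, plus strand) was 1.80-fold lower, a log2 fold change of -0.85 ± 0.116 (95% interval -1.10 to -0.59; edgeR adjusted p = 0.000575), and had the largest change of the 10. BIRC3 shares 126 exonic bases with a long non-coding RNA on the opposite strand, TNFAIP3 shares 95 with WAKMAR2 and RELA 103 with RELA-DT, and in such stretches reads are told apart only if strand is used. The libraries were directional by the study's methods, but whether the authors counted reads by strand is not given in the sources used here.

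BIRC3 and TNFAIP3 were the 2 members that also met the rule for differentially expressed genes (DEGs), p under 0.01 with a fold change of at least 1.5. Over all genes, 5.91% were DEGs in the lower direction and 1.36% in the higher. In 7 of the 10 genes all CELF6-OE values were under all Control values, and in 0 they were above, against 20.0% and 17.9% of all genes. The median log2 fold change of the 10 genes was -0.36, that of the 5 subunits -0.13, that of the 4 inhibitors with BIRC3 -0.42 and that of all genes 0.011.

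**Figure D3:**
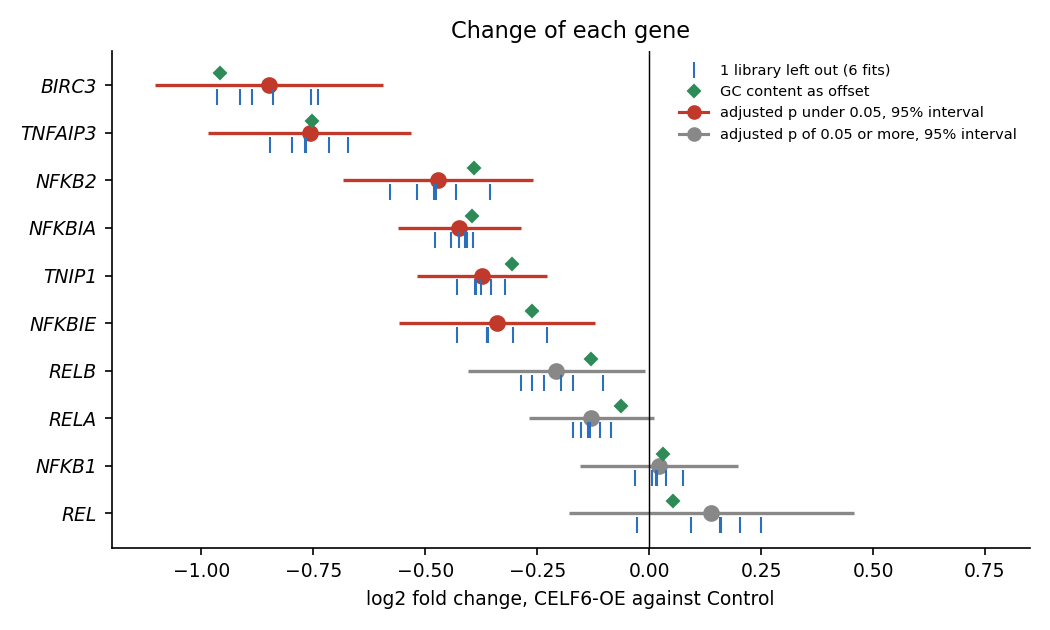
Log2 fold change of each gene, CELF6-OE against Control, with its 95% interval (red where adjusted p was under 0.05), the fits without 1 library each (blue ticks) and the fit with GC content as an offset (green diamonds). BIRC3, TNFAIP3, NFKB2, NFKBIA, TNIP1 and NFKBIE stayed below 0 throughout, while NFKB1 and REL crossed 0.

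Within a library, the inhibitors were also set against RELA, which removes any scaling of the whole library. The log2 ratio of NFKBIA counts to RELA counts was 0.39, 0.38 and 0.50 in CELF6-OE and 0.69, 0.77 and 0.69 in Control. That of TNFAIP3 was -3.35, -3.04 and -3.10 against -2.36, -2.53 and -2.69. That of BIRC3 was -0.78, -0.50 and -0.46 against 0.42, 0.18 and -0.20. For NFKBIA, NFKBIE, TNFAIP3, TNIP1, BIRC3 and NFKB2 every CELF6-OE ratio was below every Control ratio, with mean differences from -0.20 for NFKBIE to -0.71 for BIRC3. The ratios of NFKB1, RELB and REL to RELA overlapped between groups. Each of the 6 two-sided exact permutation tests without overlap gave p = 0.1, the smallest possible, or 0.15 adjusted over the 9 ratios.

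**Figure D4:**
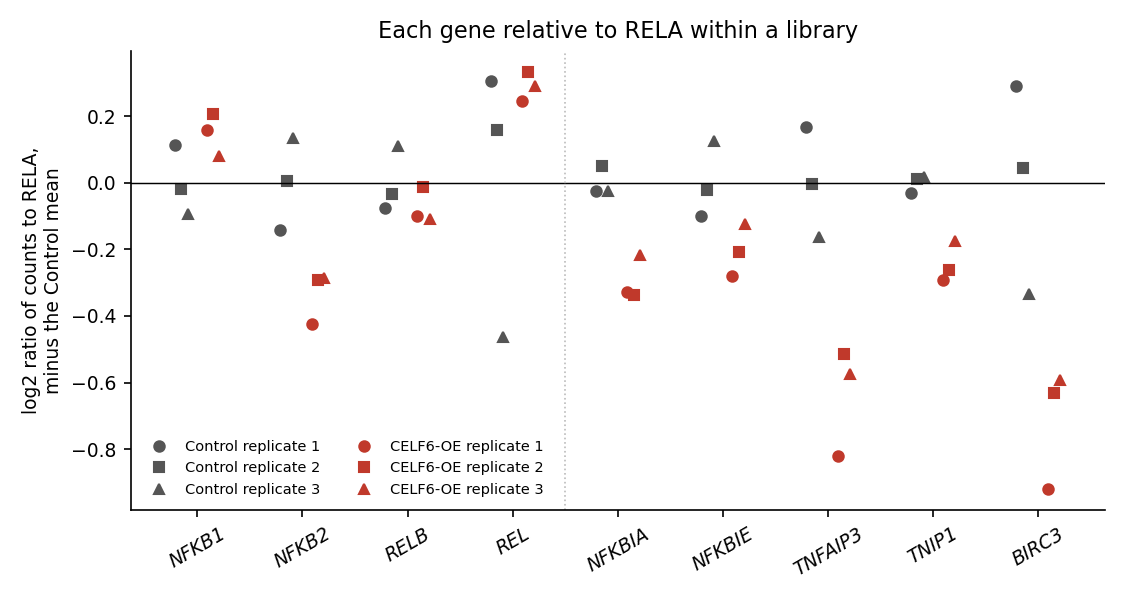
Log2 ratio of the counts of each of 9 genes to those of RELA within a library, given as the distance from the mean ratio of the Control libraries, with 1 point per library. The ratios of NFKB2, NFKBIA, NFKBIE, TNFAIP3, TNIP1 and BIRC3 were lower in all 3 CELF6-OE libraries than in any Control library.

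The Control libraries differed among themselves in a pattern that ran through the genes. For this order CPM were also scaled by TMM, as in the edgeR test. So scaled, 6 of the 10 (NFKB2, RELA, RELB, NFKBIA, NFKBIE and TNIP1) were highest in Control replicate 3 and lowest in Control replicate 1. Another 3 (BIRC3, REL and TNFAIP3) were the other way round. The transcripts of the first kind held 53.0% to 64.9% GC and those of the second 35.8% to 49.3%. By FPKM, RELA was instead lowest (30.28) and NFKBIA highest (91.91) in Control replicate 2, by narrow gaps. Across 15667 genes, the difference of Control replicate 3 from replicate 1 rose with GC content (Spearman's rho 0.63, given as a description, since the genes share their libraries), while the difference between the group means had a rho of -0.23. With GC content entered as an offset for each library, a setting chosen after seeing the data, the same 6 genes were called lower. BIRC3 was then at -0.96 (edgeR adjusted p = 3.43e-06), TNFAIP3 at -0.75, NFKBIA at -0.40, NFKB2 at -0.39, TNIP1 at -0.31 and NFKBIE at -0.26 (adjusted p = 0.0104). RELB stood at -0.13 and RELA at -0.063, neither past the threshold. With this offset 2513 of all 15667 genes were called lower, against 1820 of 15847 without it. More genes were called higher as well, so calls were more frequent in this setting in general.

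The level of CELF6 also varied, at 270.09, 294.94 and 172.27 FPKM in CELF6-OE replicates 1, 2 and 3. The CELF6-OE library nearest to the Control mean was replicate 2 for 7 of the 10 genes, replicate 3 for 2 and replicate 1 for 1. Replicate 2 had the most CELF6. For some other genes of the pathway, such as CD40, CCL5 and CXCL10, the nearest library was replicate 3, which had the least CELF6. For others, such as TRAF1, IRAK2 and NFKBIZ, it was again replicate 2. A relation to the level of CELF6 was not tested.

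Upstream of the subunits, 13 of 18 listed ligands and receptors could be tested, of which 6 were lower, 0 higher and 7 did not pass. The shares over all genes tested were 11.5% lower and 6.47% higher. The median log2 fold change of the list was -0.48. Its count of 0 higher was the same at an unadjusted p under 0.05 and by DESeq2, limma-voom and edgeR's likelihood ratio test. CD40, the TNF-family receptor that feeds the non-canonical branch, had 2.66, 2.50 and 3.27 FPKM in CELF6-OE and 6.99, 7.39 and 7.68 in Control (log2 fold change -1.42 ± 0.122, edgeR adjusted p = 3.23e-05). TNFRSF1B, the inducible TNF receptor, had 0.35, 0.42 and 0.61 FPKM against 1.61, 1.80 and 1.78 (log2 fold change -1.94). TNFSF13B, the ligand BAFF, and TLR3, the receptor for double-stranded RNA, had log2 fold changes of -2.84 and -1.63. TLR2, the receptor for bacterial lipoproteins, was at -1.31 on few counts, 0.04 to 0.05 FPKM against 0.07 to 0.15 (edgeR adjusted p = 0.0426). TNFRSF1A, the constitutive TNF receptor, named after its value was seen, was at 157 ± 2.02 FPKM against 154 ± 3.19, with a log2 fold change of -0.0041 (edgeR adjusted p = 0.970).

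Of 30 adaptors and kinases that link receptors to the inhibitors, 8 were lower, 1 was higher and 21 did not pass. Among all genes tested 11.5% were lower and 6.47% higher. The median log2 fold change of the 30 genes was -0.065. TRADD, the adaptor of the TNF receptor, had 11.69, 11.57 and 12.18 FPKM in CELF6-OE and 17.51, 19.82 and 20.53 in Control (log2 fold change -0.74 ± 0.086, edgeR adjusted p = 0.000189). MYD88, the adaptor of Toll-like and interleukin-1 receptors, was at -0.67, the kinase MAP3K8 at -0.45, RBCK1, part of the linear ubiquitin ligase, at -0.39 and the kinase IRAK2 at -0.37 on the log2 scale. IRAK1, named after its value was seen, was the 1 that rose, by 0.27 (edgeR adjusted p = 0.0317), a call lost without CELF6-OE replicate 1 or 2 or Control replicate 2, and with limma on log2(FPKM + 1) without a filter. The genes of the IKK family are also named after their values were seen. Of the complex that marks the inhibitors for degradation, the kinases CHUK (0.16) and IKBKB (-0.16) and the regulatory subunit IKBKG (-0.15) did not pass the test. The related kinase IKBKE fell, from 6.30, 6.54 and 7.18 FPKM in Control to 5.21, 5.23 and 5.69 in CELF6-OE (log2 fold change -0.34, edgeR adjusted p = 0.0240).

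Of 15 other genes listed as inhibitors of the pathway, 2 were lower, a share near the 11.5% of all genes. Of the rest, 0 were higher and 13 did not pass, and the median log2 fold change of the list was close to 0. Whether each listed gene acts as an inhibitor in these cells was not tested. ZC3H12A, an RNase that degrades inflammatory transcripts, had a log2 fold change of -0.39 (18.9 ± 0.225 against 24.2 ± 0.931 FPKM, edgeR adjusted p = 0.00268), and NFKBIZ, a nuclear IkB protein, one of -0.56 (edgeR adjusted p = 0.0213). None was higher at an unadjusted p under 0.05, by DESeq2, by limma-voom or by edgeR's likelihood ratio test.

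Downstream, 36 of 39 listed target genes were tested, of which 18 were lower, 1 was higher and 17 did not pass. Among all genes tested 11.5% were lower and 6.47% higher. The median log2 fold change of the targets was -0.29. Targets that interferon also induces were marked in the list from general knowledge, and without them 14 of 31 were lower, 1 was higher and the median was -0.26. The marking may be incomplete, so this count does not separate targets of NF-kB from those of interferon. The chemokine CCL5 had 9.61, 14.11 and 25.84 FPKM in CELF6-OE and 207.13, 224.99 and 244.50 in Control (log2 fold change -3.81 ± 0.274, edgeR adjusted p = 1.22e-05). CXCL10, likewise induced by interferon, had a log2 fold change of -3.44, TRAF1, an adaptor induced by NF-kB, of -1.88, CCL20, which attracts lymphocytes, of -1.56, and C3, the central complement component, of -1.14. The chemokines CXCL1, CXCL2 and CXCL3, which attract neutrophils and are named after their values were seen, did not pass the test. CXCL1 was at 86.9 ± 6.74 FPKM in CELF6-OE and 79.8 ± 3.65 in Control, CXCL2 at 32.1 ± 4.50 and 32.8 ± 2.48, and CXCL3 at 24.1 ± 4.24 and 23.6 ± 2.79, each with overlapping libraries and an adjusted p of 0.374 or more. CXCL5 and CXCL8 of the same list, also named after their values were seen, leaned lower without passing. Their log2 fold changes were -0.28 and -0.23 (edgeR adjusted p = 0.102 and 0.155). PTX3, a secreted pattern recognition protein named after its value was seen, was the 1 target that rose, from 0.563 ± 0.0929 to 1.19 ± 0.0929 FPKM (log2 fold change 1.05, edgeR adjusted p = 0.00221).

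**Figure D5:**
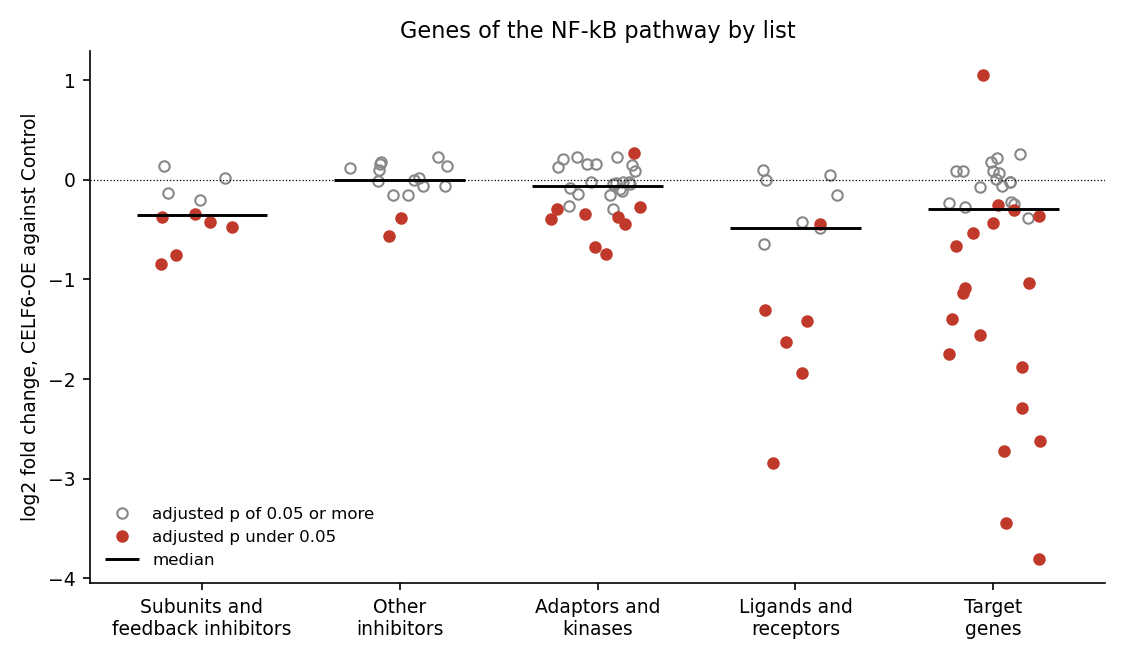
Log2 fold change, CELF6-OE against Control, of every tested gene of the 10 NF-kB genes and of the 4 pathway lists, 1 point per gene (filled where adjusted p was under 0.05), with the median as a line. The medians were -0.36 for the 10 genes, -0.48 for ligands and receptors, -0.065 for adaptors and kinases, close to 0 for other inhibitors and -0.29 for targets.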

How the data were processed

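RNA-seq libraries of 3 CELF6-OE and 3 Control cultures of A549 cells were analysed, grouped by the titles of their labels. The authors trimmed the reads, aligned them to GRCh38 with TopHat2 and deposited whole-number counts of uniquely placed reads per gene, without normalization, and a second table of FPKM values. The libraries were directional, but the counting tool, its strand setting and annotation release are not given in the sources used here. The 10 genes and the pathway lists were chosen with earlier results of these data known.

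From the counts, 15847 genes kept by filterByExpr (minimum count 10) were scaled with TMM and tested with edgeR 4.0.16 (R 4.3.3), quasi-likelihood test with Benjamini-Hochberg adjustment over all of them. The prior count for log2 fold changes was 0.125. The common biological coefficient of variation was 8.62%. FPKM values served for levels and shares, and two-sided exact permutation tests were run on FPKM, on shares and on ratios of counts. The code was tested on simulated data. The p-values of edgeR set the difference between groups against the spread between these cultures, an estimate that also draws on the other genes. The libraries held 33748328 to 37920700 counts, and no use of molecular identifiers is described.

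Beside the 10 genes and CELF6, the rule named in each pathway list the up to 5 genes with the smallest p among those with an adjusted p under 0.05 and no overlap between groups. Genes of these lists named outside the rule were chosen after their values were seen. Positions come from GENCODE v44, which held all 10 identifiers. Alternatives were other scalings, filters and tests (DESeq2 1.42.0, limma 3.58.1 on counts and on log2(FPKM + 1) or log2(FPKM + 0.1)), a replicate block, removal of CELF6, 1 library left out, a stricter fold change, and GC content as an offset, added after seeing the data.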

Additional observations from a re-analysis of the deposited data

How the results depend on the processing

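BIRC3, TNFAIP3, NFKBIA and TNIP1 were called lower in all 20 alternatives, and NFKB2 in 19. NFKB2 was at -0.42 with limma on log2(FPKM + 1) without a filter. NFKBIE lost its call there (-0.27, adjusted p = 0.126), with library size as the only scaling (-0.30, adjusted p = 0.0528) and in 5 of the 6 fits without 1 library, which ranged from -0.43 to -0.23. Without 1 library, RELB ranged from -0.29 (called) to -0.10, NFKB1 from -0.031 to 0.075 and REL from -0.026 to 0.25, so the direction of the last 2 depended on single libraries. Of the 10 genes, 1 was a DEG with limma on log2(FPKM + 1), filtered or not, and 0 at a fold change of at least 2. REL, under 1 FPKM in every library, was not tested by limma on FPKM with a filter. Same-numbered libraries did not deviate together (r from -0.072 to -0.011), so the numbers do not pair them. With a replicate block the same 6 genes were called, and the adaptors and kinases called higher went from 1 (IRAK1) to 0. Adaptors and kinases called lower were 5 with limma on FPKM without a filter and 4 to 10 without 1 library. Those called higher were 2 with library size only, 3 with upper quartile scaling, 3 with the GC content offset, 0 with limma on FPKM without a filter and 0 to 5 without 1 library. Other inhibitors called lower were 1 in each of the 3 limma fits on FPKM and 1 to 3 without 1 library. Those called higher were 2 with the GC content offset and 0 to 1 without 1 library. Targets called higher were 2 with library size only, 3 without a count filter, 2 in each filtered limma fit on FPKM, 4 with the GC content offset and 1 to 4 without 1 library. Over all genes, the number lower was 987 with limma on FPKM without a filter and 1032 to 2370 without 1 library, and the number higher was 535, 281 to 1906, and 2065 with the GC content offset. DEGs in the lower direction numbered 413, 552 and 396 with limma on log2(FPKM + 1), log2(FPKM + 0.1) and log2(FPKM + 1) without a filter, and in the higher direction 60, 143 and 57. Without 1 library, DEGs in the higher direction numbered 155 to 348. The cause of these differences was not tested.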
